A study of Saccharomyces cerevisiae with 255 samples.

Results

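The mRNAs of 10 subunits of RNA polymerases I and III were followed through 255 RNA-tagging libraries of budding yeast, Saccharomyces cerevisiae. The members were taken by name as 10 of the 6629 genes in the count tables, and the rule for them uses no measured value, though it was set with earlier results of these data known. Subunits found in RNA polymerase I and not in polymerase III are encoded by 4 members, namely RPA190 (YOR341W), RPA135 (YPR010C), RPA49 (YNL248C) and RPA43 (YOR340C). RPC40 (YPR110C) and RPC19 (YNL113W) encode subunits that both enzymes share. RET1 (YOR207C), RPC82 (YPR190C), RPC53 (YDL150W) and RPC31 (YNL151C) encode subunits of polymerase III alone. Each is a single coding exon in the RefSeq annotation of genome build R64, with RPC19 at chrXIV:412771-413199 (plus strand), RPA190 at chrXV:960987-965981 (plus strand) and RPC31 at chrXIV:347766-348521 (minus strand).

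RNA polymerase I transcribes the large ribosomal RNA precursor, and RNA polymerase III makes transfer RNAs, the small ribosomal RNA that polymerase I does not make, and other short RNAs. Both enzymes feed ribosome production, which takes much of the transcription of a growing yeast cell. Their own subunits are made from ordinary polyadenylated mRNAs, transcribed by RNA polymerase II, and RNA-binding proteins (RBPs) can bind these mRNAs like any other. Puf3, Puf4 and Puf5 are RBPs of the Pumilio family, which read short elements beginning with UGUA, mostly in 3′ untranslated regions. Pub1 binds U-rich RNA, and Nsr1 is a nucleolar protein needed for ribosomal RNA processing.

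In RNA tagging, an RBP is fused at its own locus to Pup-2, a Caenorhabditis elegans poly(U) polymerase, which adds Us to the 3′ end of the mRNAs that the RBP binds. A read with 4 to 13 Us after the poly(A) tail was counted as tagged, and the tagged share of a gene is the percent of its reads that were tagged. All strains were BY4741 cells in exponential growth in synthetic dextrose medium. Libraries came from 34 strains with a whole RBP fused to Pup-2 (109 libraries), 50 strains with a deletion or truncation in such a fusion (127 libraries), 3 strains with a catalytically dead Pup-2, here called dPup2 (11 libraries), and 3 strains with the C-Swat module and no Pup-2 (8 libraries).

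Each strain that the comparisons rest on carried a single fusion gene. Puf4 carried PUF4::Puf4-Pup2, and Puf4_ΔRBD, Puf4_ΔIDR, Puf4_T1 to Puf4_T4 and Puf4_T4&ΔIDR carried the same fusion without the RNA-binding domain (RBD), without an intrinsically disordered region (IDR), or truncated. Pub1, Puf5, Sro9 and Nsr1 carried the matching fusions of those proteins, and Pub1_Δ2, Pub1_Δ4 and Pub1_ΔIDR_2 carried Pub1-Pup2 with a part removed. The residues removed were not given in the labels. The controls were PUF3::Puf3-deadPup2 (7 libraries), PUF4::Puf4-deadPup2 (2 libraries) and PUF5::Puf5-deadPup2 (2 libraries), pooled unless named. Pub1, Sro9 and Nsr1 had no dPup2 strain of their own. They differ from every control in the fused RBP as well as in Pup-2, and Puf4 and Puf5 differ so from the controls of the other proteins. The labels do not say whether libraries of a strain came from separate cultures, so p-values measure only the spread between these libraries, which may be technical.

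Depth ran from 93564 to 5768639 reads per library (median 1045022), and 10 libraries had fewer than 200000. None of 316 pairs of libraries from the same strain were identical, and every pair differed by more than counting noise. In the dPup2 libraries 0.00761% to 0.0191% of all reads were tagged, against 0.546% to 0.734% in Puf4 and 19.8% to 24.3% in Pub1. PUF4 itself stood at 35.1 ± 16.6 RPM (reads of the gene scaled to the library total; SD, n = 4) in Puf4 and 36.6 RPM in Puf4_dead, a difference smaller than the SD. PUF4 means were 72.7 RPM in Puf3_dead, 29.8 RPM in Puf5_dead and 25.2 to 63.7 RPM in the Puf4 forms. PUB1 averaged 23.4 RPM in Pub1 against 29.8 to 37.9 RPM in the control strains, and NSR1 215 RPM in Nsr1 against 411 to 529 RPM. Strain means of the fused RBP's mRNA thus differed, and their part in tagging was not tested. Intervals below are exact (Clopper-Pearson) 95% intervals and, like the upper limits given for counts of 0 (3 counts of the total), cover counting error only. A ratio given as at least a value sets a pooled share against such an upper limit and leaves out the share's own counting error.

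Sequences downstream of the coding region are shown first, because 3 of the 4 members tagged most in Puf4 hold a Puf4-type element. In the 300 nt after the stop codon, the letters TGTANANTA (N, any base, transcript strand) stood in 3 of the 10 members and in 8.656% of 5938 genes. The sites, written 5′ to 3′ on the transcript strand of genome build R64 with the element in capitals, lie in RPA190 (chrXV:966133-966157, plus strand, 160 nt after the stop codon), RPA43 (chrXV:959115-959139, minus strand, 71 nt) and RPC19 (chrXIV:413315-413339, plus strand, 124 nt).
RPA190: gtgtgttaTGTAAATTAagagagct
RPA43: taaataatTGTACATTAttacagtg
RPC19: aaaatctaTGTATAATAtaaccaga

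A longer spacing, TGTA and then TA after any 4 bases, associated with Puf5 and searched after the values had been seen, stood in 4 members (RPA135, RPA49, RPC40 and RPC31) and in 25.31% of genes. RPC31 was the member with 2 such sites, at chrXIV:347695-347720 and chrXIV:347637-347662 on the minus strand, 54 nt and 112 nt after the stop codon. They are shown because RPC31 was the member tagged most in whole Puf5. RPA135 (0 of 1720 reads), RPA49 (0 of 1495) and RPC40 (0 of 2048) also hold this spacing and had no tagged read there. RPC19 lacks it and had 2 tagged reads of 2166. Among genes with at least 16 RPM in Puf5, a share of at least 1% was reached by 3.83% with this spacing and 1.13% without.
RPC31 first site: gcagaattTGTACAATTAgcattttt
RPC31 second site: cagatttaTGTATACATAttgaaata
The Puf3-type letters TGTANATA stood in none of the 10 members and in 16.35% of genes. A match to these letters is a description of the sequence and not evidence of binding, and none of the 3 patterns was found after RPC82, RPC53 or RET1.

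Across all strains, tagging of the polymerase mRNAs was rare and was carried by a few RBPs. Of 34 whole-RBP strains, 9 gave no tagged read for any member (Bfr1, Dbp1, Gbp2, Mss116, Ngr1, Npl3, Puf6, Rat1 and Tis11), and 29 had a pooled member share, the tagged reads over all reads of the 10 members together, under 0.5%. The other 5 were Puf4 at 3.54%, Pub1 at 2.79%, Sro9 at 1.25%, Nsr1 at 0.767% and Rie1 at 0.522%. Among the 50 deletion strains the pooled member share reached 0.5% in 7, which were 4 forms of Puf4 (2.53% to 7.53%) and 3 forms of Pub1 (1.18% to 2.05%). In the 11 dPup2 libraries 2 of 18481 member reads were tagged, 1 from RPA135 and 1 from RPC19.

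The order of strains changed when the tagged share of the whole library was set beside that of the members. In Puf4 the libraries averaged 0.599% tagged reads over all genes, well below the 3.54% of the members. In Pub1 they averaged 22.7% against 2.79% for the members, and in Sro9 11.1% against 1.25%, so the members lay below the library there. The library share weighs each gene by its reads. The median share of genes with at least 16 RPM was lower, 2.34% in Pub1 and 1.10% in Sro9. In Puf4_T3 the members stood at 7.53% against 1.15% for the libraries, so that form resembled Puf4 in this respect. RPC19 alone held 247 of the 299 tagged member reads in Puf4 and 528 of 561 in Puf4_T3. The pooled shares of these strains thus describe mainly that gene.

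**Figure D1:**
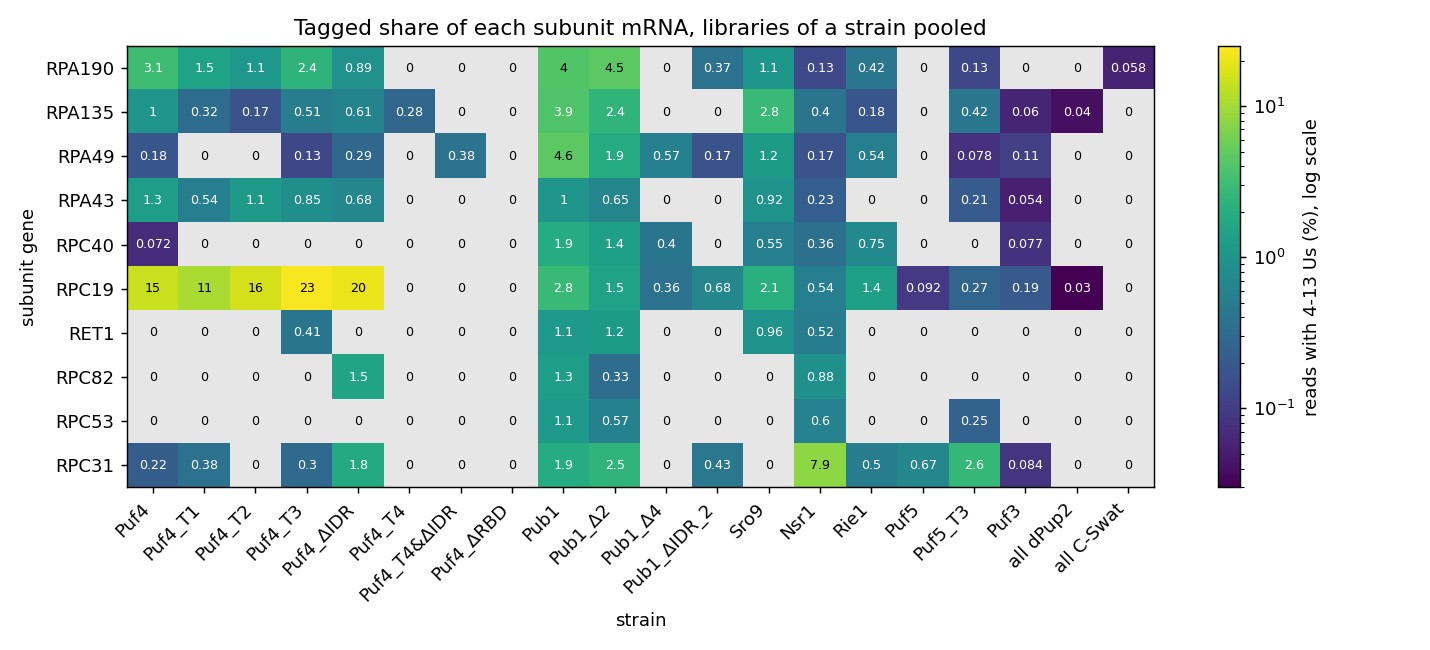
Pooled tagged share (%, reads with 4 to 13 Us of all reads of the gene) of each of the 10 members (vertical axis) in each strain shown (horizontal axis), on the log colour scale at the side, with grey for 0. RPC19 stood out in Puf4 at 14.7% and in its forms T1, T2, T3 and ΔIDR at 10.7% to 23.3%, and RPC31 in Nsr1 at 7.91%.

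In Puf4, RPC19 was the member tagged most, RPA190, RPA43 and RPA135 were tagged at low shares, and the other 6 members were at or near 0. RPC19 encodes the small alpha-like subunit that pairs with Rpc40 in the assembly platform of both enzymes. Its tagged reads were 48 of 331 (14.5%), 33 of 192 (17.2%), 59 of 543 (10.9%) and 107 of 619 (17.3%) in libraries C1_1, C1_2, C1_5 and C1_C2_1. All 4 libraries lay above every control library, where RPC19 had 1 tagged read of 3284. The pooled share was 14.7% (13% to 16.4%), a ratio of 481 to dPup2 with a counting interval of 85.6 to 19090. In the edgeR quasi-likelihood test the tagged share of RPC19 was higher in Puf4 than in dPup2, with a log2 ratio of 7.77 ± 0.51 (SE) and a Benjamini-Hochberg adjusted p of 3.35e-11. RPC19 ranked 40th by pooled share among 4323 genes with a mean of at least 16 RPM in Puf4.

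RPA190 encodes the largest subunit of polymerase I, which holds much of its active site. It had 6 tagged reads of 178, 11 of 133, 5 of 237 and 7 of 390 in the 4 Puf4 libraries, with shares from 1.79% to 8.27%. No control library had a tagged RPA190 read among 2338, which allows a share of up to 0.128%, so the pooled 3.09% in Puf4 was at least 24.1-fold higher. The edgeR test called it at an adjusted p of 9.11e-05, and RPA190 ranked 147th of the 4323 genes.

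RPA135, the second largest subunit of polymerase I, had 3 of 184, 3 of 195, 2 of 261 and 3 of 449 tagged reads in Puf4. Each library had a few tagged reads, while the controls had 1 of 2509 in all. The pooled share was 1.01% (0.505% to 1.80%), a ratio of 25.3 to dPup2 (3.68 to 1091), and the log2 ratio was 3.61 ± 0.84 (SE, adjusted p 5.76e-05, edgeR).

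RPA43 encodes a stalk subunit of polymerase I, the part that contacts the initiation factor Rrn3. It had 3 of 104, 1 of 91, 2 of 144 and 2 of 284 tagged reads, 1.28% pooled (0.556% to 2.51%), against 0 of 1455 in the controls. That share was at least 6.23-fold higher than in dPup2. With 8 tagged reads it stayed under the minimum of 10 tagged reads for testing, and without that minimum edgeR gave an adjusted p of 0.000104.

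RPA49, which forms a dimer with Rpa34 on polymerase I, had 1 of 190, 0 of 171, 1 of 306 and 0 of 443 tagged reads in Puf4. RPC40, the larger partner of Rpc19, had 1 of 1396 and RPC31 had 1 of 461. The other 3 polymerase III subunits had no tagged read in Puf4, which allows shares of up to 0.744% for RET1 (0 of 403), 0.629% for RPC53 (0 of 477) and 1.18% for RPC82 (0 of 254). For RPC40 and RPC31 the share lay under the upper limit of the controls, 0.0958% and 0.277%, and for RPA49 it was 1.21 times that limit on 2 tagged reads. Without the minimum, edgeR did not call RPA49 (log2 ratio 2.06, adjusted p 0.134). Tagging by Puf4 was therefore not detectable at this depth for RPA49, RPC40, RPC31, RET1, RPC53 and RPC82.

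The minimum for testing in Puf4 against dPup2 was passed by 3 members (RPC19, RPA190 and RPA135), and all 3 were called higher. Of the 391 genes tested in that comparison, 93.9% were called, so the count of called members follows the background and is no result about the members. A gene with few control reads reaches the minimum mainly through its tagged reads in Puf4. With reads of 14 to 16 Us also taken as tagged, RPC19 alone stayed called of the 3, RPA190 and RPA135 having adjusted p-values of 0.9997, and 73 of 4376 genes were called. That wider range adds many reads that the controls also hold, as reads with 16 Us were 6.45% of all reads in Puf4 and 7.43% in Puf3_dead.

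**Figure D2:**
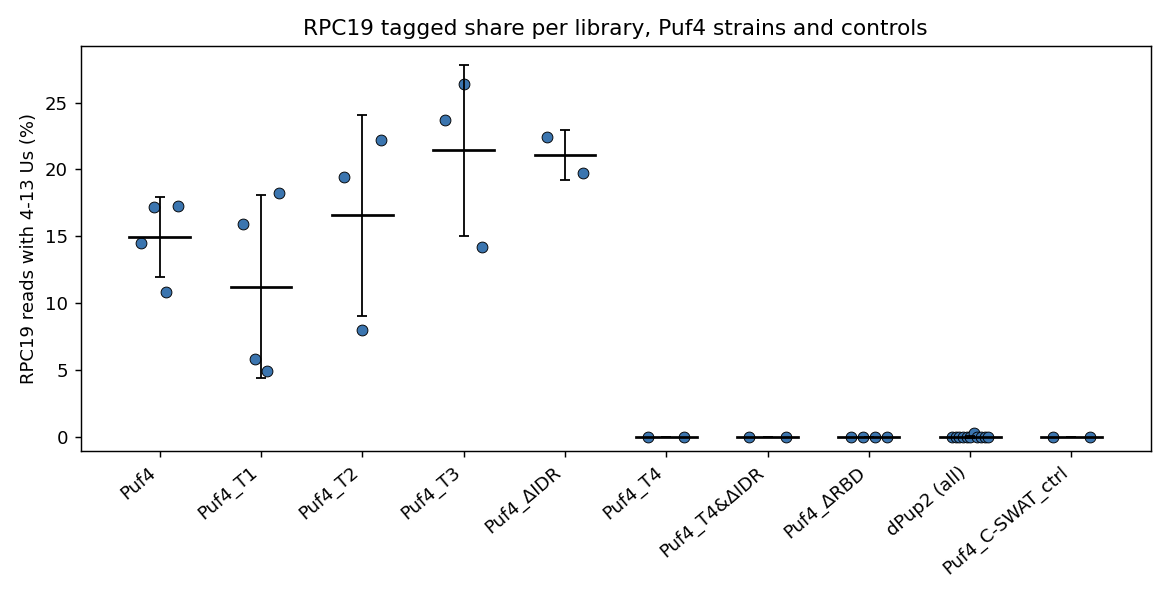
Tagged share of RPC19 (%, vertical axis) in Puf4, its deletion forms, the 11 dPup2 libraries and the Puf4 C-Swat control, with 1 point per library, a line at the mean and bars of 1 SD. The 4 Puf4 libraries lie at 10.9% to 17.3%, the libraries of T3 and ΔIDR at 14.2% to 26.4%, every library of ΔRBD, T4, T4&ΔIDR and the C-Swat strain at 0, and 1 dPup2 library at 0.311% with the rest at 0.

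The 3 members with TGTANANTA were among the 4 tagged most in Puf4, together with RPA135, which lacks these letters in the window. Among all genes with at least 16 RPM in Puf4 the median share was 0.833% for the 431 genes with TGTANANTA and 0 for the 3856 without. A share of at least 1% was reached by 203 (47.1%) of the former and 99 (2.57%) of the latter. RPC19, RPA190 and RPA43 lay in the first group at 14.7%, 3.09% and 1.28%, all above its median.

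Other genes of the polymerases, taken from lists fixed by subunit name, were also tagged in Puf4. Of the subunits common to polymerases I, II and III, 5 of 5 were tested and called higher, led by RPO26 (360 of 3584 reads, interval 9.08% to 11.1%, log2 ratio 7.98 ± 0.49 SE), RPC10 at 4.48% and RPB5 at 2.23%. Of 3 other polymerase I subunits, RPA12 at 5.73% (66 of 1151) and RPA14 at 1.45% (17 of 1169) were tested and called. RPO21, the largest subunit of polymerase II, was the 1 gene tested of 7 in its list and had a share of 1.99%. No gene passed the minimum among 6 other polymerase III subunits, 8 polymerase I factors and 11 polymerase III factors, and the 93.9% of all tested genes applies to each of these counts. Of the genes called, RPO26, RPC10, RPB8, RPB10, RPA12 and RPA14 hold TGTANANTA in the window, and RPB5 and RPO21 lack it. RPB9, RRN10, TFC4 and TFC6 hold it and did not pass the minimum. RPO26 (chrXVI:911831-911855, plus strand, 39 nt after the stop codon) and RPA12 (chrX:555593-555617, plus strand, 29 nt) are printed beside the members because they were the genes of these lists with shares nearest to that of RPC19.
RPO26: gctttgttTGTATATTAttataact
RPA12: ttacaattTGTACATTAatatcatc

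Tagged reads of RPC19 in Puf4 carried 7.63 Us on average, and 58.7% of them had 4 to 7 Us. All tagged reads of the same libraries averaged 7.38 Us with 62.3% in that range, so the tails of RPC19 were like those of other targets. RPA190 reads averaged 6.10 Us over 29 tagged reads.

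Without the RNA-binding domain of Puf4 no member was tagged. In Puf4_ΔRBD, RPC19 had 0 tagged reads of 461, 504, 547 and 196 in the 4 libraries, and no other member had a tagged read among 7563 member reads. The pooled share of RPC19 in Puf4 was at least 83.5-fold that in Puf4_ΔRBD, that of RPA190 at least 9.21-fold, that of RPA135 at least 3.99-fold and that of RPA43 at least 2.47-fold. The edgeR test called RPC19 (adjusted p 4.03e-06), RPA190 (0.00219) and RPA135 (0.00470) lower, 3 of the 3 members tested, where 81.5% of 372 genes were called. Puf4_ΔRBD held no tagged read of these members, so they passed the minimum through Puf4 alone and could only be called lower. The calls are thus no evidence beyond the counts. With 4 to 16 Us, RPA190 (adjusted p 0.975) and RPA135 (0.896) lost the call, and 77 of 4299 genes were called. The library-wide tagged share fell as well, to 0.00634% to 0.0242%.

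Puf4_T4 and Puf4_T4&ΔIDR gave the same picture for RPC19. It had 0 tagged reads of 512 and 177 in Puf4_T4 and 0 of 352 and 514 in Puf4_T4&ΔIDR, so Puf4 was at least 33.7-fold and 42.3-fold higher. The single tagged member read was from RPA135 in Puf4_T4 and from RPA49 in Puf4_T4&ΔIDR. In Puf4_T4, RPC19 (adjusted p 1.97e-05) and RPA190 (0.0136) were called lower and RPA135 was not (log2 ratio −1.57 ± 1.53 SE, adjusted p 0.293), 2 of 3 members tested where 68.1% of genes were called. In Puf4_T4&ΔIDR, RPC19 (8.81e-06), RPA190 (0.0148) and RPA135 (0.0361) were called lower, 3 of 3 where 61.2% of genes were called. RPC19 and RPA190 passed the minimum through Puf4 alone in both comparisons, so they could only be called lower. The call of RPC19 held in every alternative run for these 2 strains. That of RPA190 was lost with 4 to 16 Us in both strains, without either library of Puf4_T4&ΔIDR and without C1_1 of Puf4_T4. That of RPA135 in Puf4_T4&ΔIDR was lost without either library of that strain, with DESeq2 (adjusted p 0.0997), without the minimum on counts (0.283) and with 4 to 16 Us (0.975), and without any 1 Puf4 library RPA135 could not be tested.

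The shorter truncations and the strain labelled Puf4_ΔIDR kept tagging of RPC19. Which disordered residues that strain lacks could not be settled from the sources used here, so its values belong to the label and not to a known stretch of the protein. Puf4_T1 had 51 of 320, 25 of 428, 16 of 324 and 54 of 296 tagged reads in libraries C1_1, C1_2, C1_3 and C2_1. The shares of C1_1 (15.9%) and C2_1 (18.2%) lay within or above the Puf4 range, and those of C1_2 (5.84%) and C1_3 (4.94%) below it. The library-wide tagged share was also higher in C1_1 and C2_1 (0.729% and 0.857%) than in C1_2 and C1_3 (0.417% and 0.474%). The summed level of the members was lower in C1_1 and C2_1 (1475 and 1424 RPM) than in C1_2 and C1_3 (2259 and 2203 RPM). The part of either in the spread was not tested.

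Puf4_T2 had 70 of 360, 47 of 584 and 131 of 590 tagged RPC19 reads, or 19.4%, 8.05% and 22.2%. Its libraries lay on both sides of the Puf4 range. Puf4_T3 had 193 of 814, 279 of 1058 and 56 of 395, or 23.7%, 26.4% and 14.2%, and Puf4_ΔIDR had 52 of 232 and 176 of 891, or 22.4% and 19.8%. The lowest RPC19 share lay in the library with the highest summed member level in Puf4_T2 (2535 RPM), Puf4_T3 (2379 RPM) and Puf4 (1728.5 RPM). The Puf4_ΔIDR libraries stood at 1952 and 1946 RPM, and a link between level and share was not tested. Both Puf4_ΔIDR libraries and 2 of the 3 Puf4_T3 libraries lay above all 4 Puf4 libraries in RPC19 share.

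None of these differences from Puf4 passed the test. For RPC19 the edgeR log2 ratio was −0.42 ± 0.39 (SE, adjusted p 0.653) in Puf4_T1, 0.15 ± 0.39 (0.916) in Puf4_T2, 0.54 ± 0.26 (0.274) in Puf4_T3 and 0.50 ± 0.23 (0.317) in Puf4_ΔIDR. In each comparison 4 members were tested and 0 were called, also at an unadjusted p under 0.05. Over all genes tested, 0% were called in Puf4_T1 (0 of 408, with 38 at an unadjusted p under 0.05, 0 by DESeq2 and 3 by limma), 0.501% in Puf4_T2 (2 of 399, with 50 unadjusted, 2 by DESeq2 and 5 by limma), 9.28% in Puf4_T3 (40 of 431) and 6.68% in Puf4_ΔIDR (27 of 404). Without replicate 3 of Puf4_T3, RPC19 was called at a log2 ratio of 0.76 and an adjusted p of 0.0379.

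RPA190 was tagged in every library of these 4 strains. Its shares were 2.37%, 0.860%, 0.437% and 3.68% in Puf4_T1, 1.38%, 0.546% and 1.72% in Puf4_T2, 2.86%, 2.35% and 1.87% in Puf4_T3, and 1.04% and 0.858% in Puf4_ΔIDR. The 2 Puf4_ΔIDR libraries and all 3 Puf4_T2 libraries lay below the lowest Puf4 library (1.79%). The log2 ratio of RPA190 in Puf4_ΔIDR was −1.96 ± 1.06 (SE, adjusted p 0.386), opposite in sign to that of RPC19, though neither value passed and the difference between the genes was not tested.

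Set against the library, RPC19 took a narrower range over the 5 strains together, though a wider one within Puf4. Its share divided by the tagged share of the whole library was 26.3, 31.5, 14.8 and 30.7 in Puf4, 21.9, 14, 10.4 and 21.3 in Puf4_T1, and 24.1, 17.6 and 20.6 in Puf4_T2. The same quotient was 18.7, 20.2 and 16.2 in Puf4_T3 and 22.3 and 22.2 in Puf4_ΔIDR. The libraries with high RPC19 shares in Puf4_T3 and Puf4_ΔIDR thus no longer exceeded Puf4 on this scale, and 3 of the 4 Puf4 libraries were above all of them.

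**Figure D3:**
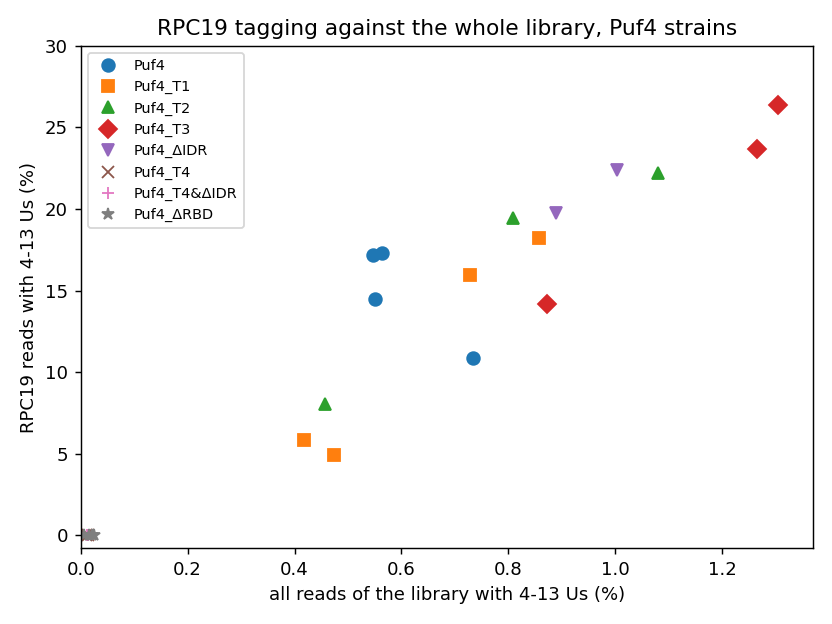
Tagged share of RPC19 (%, vertical axis) against the tagged share of all reads of the same library (%, horizontal axis), 1 point per library of Puf4 and its forms. Libraries with a share near 0.01% over all genes have RPC19 at 0, and among the others RPC19 ranges from 4.94% at a library share of 0.474% to 26.4% at 1.30%.

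In Nsr1, RPC31 was tagged at several times the library share, and the pooled shares of the other 9 members lay below the mean library share of 1.82%. RPC31 encodes an acidic subunit of the trimer with Rpc82 and Rpc34 that polymerase III needs to start transcription. Its tagged reads were 8 of 146, 7 of 83, 3 of 22 and 4 of 27 in the 4 libraries, or 5.48%, 8.43%, 13.6% and 14.8%. All 4 libraries lay above the dPup2 libraries, where RPC31 had 0 tagged reads of 1083, so the pooled 7.91% (5.03% to 11.7%) was at least 28.6-fold higher. RPC31 had the highest pooled share of all 4301 genes with at least 16 RPM in Nsr1. The median share of these genes was 0.166%, and the other 9 members stood between percentile 49.8 (RPA190) and percentile 71.8 (RPC82).

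The edgeR test gave RPC31 a log2 ratio of 6.13 in Nsr1 against dPup2 (adjusted p 4.82e-15), 1 of 1 member tested, where 99.7% of 360 genes were called. The controls held no tagged RPC31 read, so RPC31 passed the minimum through Nsr1 alone and could only be called higher. With 4 to 16 Us the call was lost (log2 ratio 1.92, adjusted p 0.552), and edgeR called 0 of 4389 genes, with 194 at an unadjusted p under 0.05. The 2 libraries with the highest shares had 22 and 27 RPC31 reads. The library-wide share was 1.02%, 1.67%, 2.35% and 2.25%, and RPC31 lay at 5.36, 5.05, 5.79 and 6.60 times that share. Each of the other 9 members had 1 to 5 tagged reads in Nsr1, with pooled shares from 0.134% for RPA190 to 0.877% for RPC82. In replicate 4, RPC82 (8.33%, 1 tagged read) and RPC19 (2.88%, 3 tagged reads) lay above the library share. RPC31 reads carried 7.45 Us on average over 22 tagged reads, against 5.95 for all tagged reads in Nsr1.

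RPC31 was also the member tagged most in whole Puf5 and in its truncations T1 to T5, at low counts. Puf5 is the Pumilio protein that accepts the longer spacing. In whole Puf5 the tagged reads of RPC31 were 4 of 181, 1 of 152, 0 of 135, 0 of 110, 0 of 55 and 0 of 108, so 2 of 6 libraries held all 5. The pooled 0.675% (0.219% to 1.57%) was 2.44 times the dPup2 upper limit of 0.277%, and that limit lies inside the interval. No member reached the minimum for testing in Puf5 or in Puf3. Without the minimum, edgeR called RPC31 in Puf5 at a log2 ratio of 2.65 and an adjusted p of 0.0257.

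Truncated forms of Puf5 varied. Puf5_T3 had 6 of 121, 1 of 171, 1 of 119 and 7 of 162, 2.62% pooled (1.47% to 4.28%), with tagged reads in all 4 libraries. Its higher shares were in libraries 3 and C1_4, with summed member levels of 1227 and 1216 RPM. The lower were in C1_2 and C1_3, at 2094 and 2027.5 RPM, and a link between level and share was not tested. Puf5_T2 had 7 of 478 (1.46%) and Puf5_T5 4 of 298 (1.34%), while Puf5_T1 had 2 of 383 (0.522%), Puf5_T6 1 of 292 (0.342%) and Puf5_ΔRBD 0 of 262, which allows up to 1.15%. The Puf5_T3 and Puf5 libraries overlapped and that difference was not tested. RPC31 stayed under the minimum in Puf5_T6 against Puf5, and without it the log2 ratio was −0.75 (adjusted p 0.666, edgeR).

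**Figure D4:**
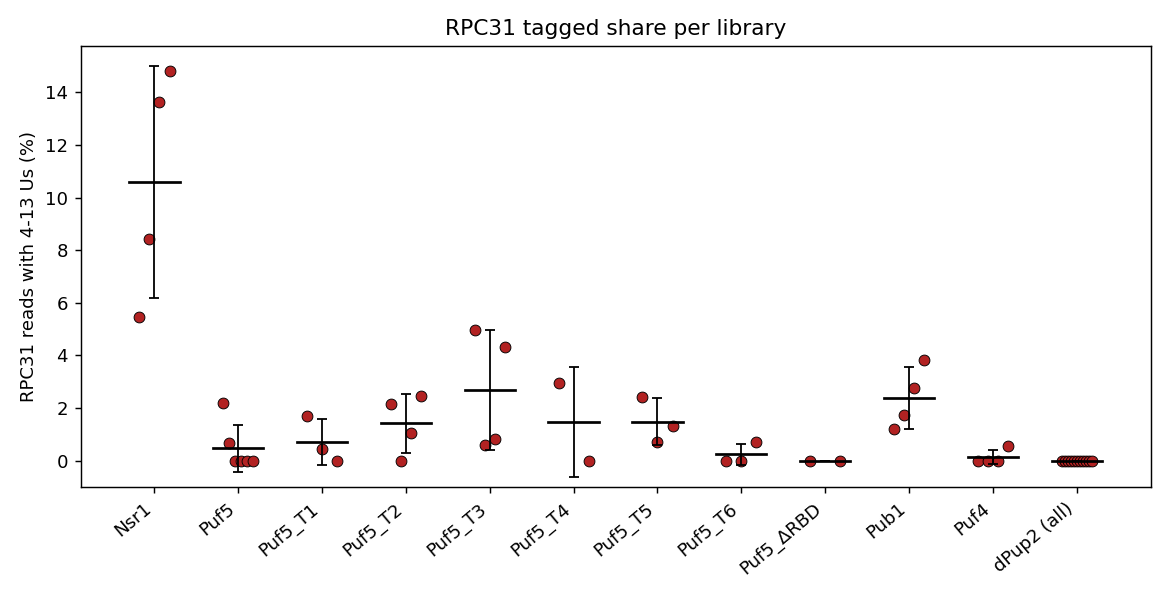
Tagged share of RPC31 (%, vertical axis) in Nsr1, Puf5, its forms, Pub1, Puf4 and the 11 dPup2 libraries, with 1 point per library, a line at the mean and bars of 1 SD. The 4 Nsr1 libraries lie at 5.48% to 14.8%, 4 of 6 Puf5 libraries at 0, and every dPup2 library at 0.

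In Pub1, members of both enzymes were tagged, at shares below that of the library. RPA49 had 12 of 232, 13 of 280, 1 of 72 and 3 of 50 tagged reads, 4.57% pooled. RPA190 had 10 of 300, 13 of 323, 6 of 97 and 2 of 47, 4.04% pooled, and RPA135 had 30 of 769, or 3.90%. RPA190 and RPA135 had tagged reads in all 4 libraries, as did RPA49, RPC19 (2.76%), RPC31 (1.92%) and RPC40 (1.91%).

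The other members in Pub1 lay lower and were missing from some libraries. Their pooled shares were 1.29% for RPC82 (2 of 155), 1.13% for RET1 (2 of 177), 1.12% for RPC53 (4 of 357) and 1.002% for RPA43 (5 of 499). The intervals of these 4 overlap, so their order is not resolved at this depth. Against the 4275 genes with at least 16 RPM in Pub1, whose median share was 2.34%, the members stood between percentile 24.9 (RPA43) and percentile 65.2 (RPA49).

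In Pub1 against dPup2, 5 members (RPA190, RPA135, RPA49, RPC40 and RPC19) could be tested and all 5 were called higher, where 99.9% of 1488 genes were called. With 4 to 16 Us, RPA190 (adjusted p 0.204) and RPC19 (0.0797) lost the call. The pooled shares of RPA190, RPA49 and RPC40 were at least 31.5-fold, 30.7-fold and 19.96-fold above the controls. RPA135 was 97.9 times (16.3 to 3993) and RPC19 90.7 times (15.04 to 3704) the control share, which rests on 1 tagged read each. In Sro9, RPC19 had 10 of 557 and 2 of 19 tagged reads, and it was the 1 member tested, called at a log2 ratio of 4.93 ± 1.13 (SE, adjusted p 6.14e-08) where 99.7% of 723 genes were called. Both Sro9 libraries held tagged RPC19 reads, and the second had 19 reads of the gene. Without replicate 1 of Sro9 no member could be tested, and RPC19 was not called by DESeq2 (adjusted p 0.0911) or with 4 to 16 Us (0.997).

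Elsewhere among whole RBPs, tagged members were few. RPC31 had 3 of 107 tagged reads in Nrd1 (2.80%), RPC19 had 8 of 580 in Rie1 (1.38%), and RPA190 had 8 of 653 in Pbp1 (1.23%). These rest on 3 to 8 tagged reads and were not tested.

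Deletions in Pub1 changed the members to different degrees. In Pub1_Δ2, RPA190 stayed at 47 of 910 and 39 of 987 tagged reads (5.16% and 3.95%, log2 ratio 0.16 to Pub1), inside the Pub1 range of 3.33% to 6.19%. RPA49 had 11 of 577 and 14 of 766 (1.91% and 1.83%), and its log2 ratio to Pub1 was −1.27 ± 0.44 (SE, adjusted p 0.00728). Both Pub1_Δ2 shares of RPA49 lay below 3 of the 4 Pub1 libraries and above the remaining one (1.39%). RPA49 was the 1 member called of 7 tested, where 59.7% of 2043 genes were called, and RPC19 had an adjusted p of 0.0516. Without replicate 1 or replicate 2 of Pub1, or without replicate 1 of Pub1_Δ2, 2 members were called, and DESeq2 and limma called 0.

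In Pub1_Δ4, 4 of 5 members tested were called lower, where 80.7% of 1553 genes were called. RPA190 and RPA135 had no tagged read of 166 each, so Pub1 was at least 2.24-fold and 2.16-fold higher, and RPA49 and RPC19 kept 1 tagged read each. RPC40 did not pass (log2 ratio −2.12, adjusted p 0.102). Without library C1_1 of Pub1_Δ4 no member was called, so these calls rest on that library, and DESeq2 called 2.

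In Pub1_ΔIDR_2, 5 of 5 members tested were called lower, where 98.3% of 1517 genes were called. RPC19 kept 5 tagged reads of 738 and had the smallest change of the 5 (log2 ratio −1.97, adjusted p 0.00247), which was not called without library C2_1 (adjusted p 0.239) or by DESeq2 (0.0572). RPA135 had 0 of 623 and RPC40 0 of 714 tagged reads, at least 8.10-fold and 4.55-fold below Pub1. The library-wide tagged share stood at 0.262% to 0.522% in Pub1_ΔIDR_2, against 8.75% to 9.17% in Pub1_Δ2. With 4 to 16 Us none of the 5 stayed called (adjusted p 0.077 to 0.948), and 1157 of 4181 genes were called.

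The levels of the members themselves, as RPM over all U lengths, differed between the enzymes in the same direction across the libraries. Reads were counted in windows of equal length around the transcript end, so levels can be compared between genes without a length correction. RPC19 averaged 273.6 RPM (SD 88.2) over the 255 libraries, RPC40 237.9, RPA135 216, RPA190 198.7, RPA49 167, RPA43 123.3, RPC53 100, RPC31 80.6, RET1 66.9 and RPC82 43.5 (SD 14.97). Neighbours in this order overlapped widely, with RPC19 between 68.5 and 617 RPM and RPC82 between 6.09 and 94.96 RPM.

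Within libraries the order by enzyme was firmer than that by gene. The 2 shared subunits lay above all 4 polymerase III subunits in 255 of 255 libraries, and the median of the polymerase I subunits lay above that of the polymerase III subunits in 255 of 255. The lowest polymerase I subunit exceeded the highest polymerase III subunit in 187 libraries. RPC82, a subunit of the initiation trimer, was the lowest member in 225 libraries, while RPC19 was the highest in 162 and RPC40 in 46. In bulk cultures a lower RPM from fewer cells with the mRNA and from less mRNA per cell cannot be told apart.

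**Figure D5:**
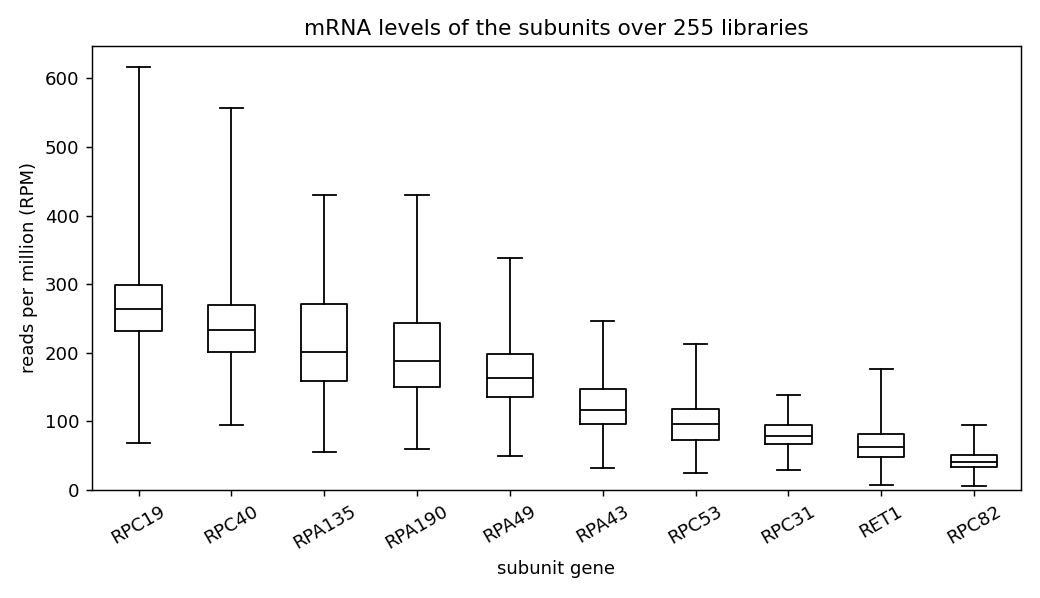
Level of each member (RPM, vertical axis) over the 255 libraries, in order of the mean, with the box from the lower to the upper quartile, a line at the median and whiskers to the lowest and highest library. RPC19 has the highest mean, 273.6 RPM, and RPC82 the lowest, 43.5 RPM, and the ranges of neighbouring members overlap.

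Members rose and fell together across libraries. The median Pearson r between 2 members, over log2(RPM + 1) in 255 libraries, was 0.63 (0.29 to 0.86 over 45 pairs), and over 90 strain means it was 0.68. The 4 polymerase I subunits had a median r of 0.73 and the 4 polymerase III subunits 0.42. For comparison it was 0.61 among other polymerase I subunits, 0.49 among common subunits, 0.28 among polymerase II subunits, 0.21 among other polymerase III subunits and 0.14 among all pairs of 4436 genes. Counting noise lowers r at low levels. The 4 polymerase III subunits had the lowest mean levels of the members, and r was not matched for level between lists. Libraries share depth, strain and preparation, so these are descriptions of covariation and not tests.

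Promoter letters are printed as a description, and a link to the covariation was not tested. In the 300 nt before the start codon, on either strand, GATGAG, the core of the PAC element named after polymerases A and C, stood in 10 of 10 members and in 18.64% of genes. AAAAATTT, the core of the ribosomal RNA processing element, stood in 9 of 10 members, all but RPC31, and in 15.31% of genes. The PAC element is named after these enzymes, so its count in the members is no independent result. Among other polymerase I subunits (median r 0.61), RPA14 and RPA34 held GATGAG and RPA12 did not. Among other polymerase III subunits (0.21), RPO31, RPC34, RPC37 and RPC25 held it and RPC17 and RPC11 did not. No common subunit (0.49) and no polymerase II subunit (0.28) held it. Sites of 4 members with similar flanks, chosen after they were seen, are shown 5′ to 3′ on the transcript strand with GATGAG in capitals, for RPC19 (chrXIV:412636-412657, plus strand, 127 nt before the start codon), RPC40 (chrXVI:746905-746926, minus strand, 83 nt), RPA49 (chrXIV:182725-182746, minus strand, 130 nt) and RET1 (chrXV:733573-733594, minus strand, 129 nt).
RPC19: tcacctgcGATGAGctggaaaa
RPC40: attattgcGATGAGttgaaaga
RPA49: tttattgcGATGAGctgaaatt
RET1: aattgtgaGATGAGctgaaaat

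The highest summed levels of the 10 members were found in Nsr1 (2260 RPM), Scp160_ΔIDR_2 (2182 RPM) and Puf5_ΔRBD (2138 RPM), as means over the libraries of a strain. The lowest were in Pub1_T2_Trc6 (716 RPM), Pub1_T2_Trc9 (717 RPM) and Puf6 (820 RPM). Single libraries spanned a similar range within other strains. In Puf5_T1 the libraries C1_1, C1_2 and C2_2 stood at 1027, 2735 and 1344 RPM, and in Puf4_ΔRBD C1_2 and C1_3 stood at 2298 and 2299.5 RPM beside 1163 RPM in C1_1 and 946 RPM in C2_1. A strain mean can thus rest on single libraries that stand apart. Libraries C1_2 and C1_3 also stood high in Puf5 (2066 and 2051 RPM), Puf5_T2 (2046.5 and 2195 RPM) and Puf4_T1 (2259 and 2203 RPM). C1_2 did not stand high in Puf4 (779 RPM) or Puf5_T6 (1305 RPM). The labels do not say whether libraries with the same number share a batch, and these differences were not tested.

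Levels were tested in the 2 comparisons of Puf4 with Puf4_dead and with Puf4_ΔRBD, and no member was called for a change there. Levels were not tested for the other strains. For the summed members, Pub1_Δ4 stood at 896 and 848 RPM against 1587 to 1847 RPM in Pub1, with no overlap. RPC19 stood at 209.9, 119, 416 and 214 RPM in the Puf4 libraries, at 262 and 357 RPM in Puf4_dead, and at 338, 473, 472 and 214 RPM in Puf4_ΔRBD, and the 3 strains overlapped. In the edgeR test on all reads, 0 of 10 members were called between Puf4 and Puf4_dead, where 0% of 5230 genes were called, with 502 genes at an unadjusted p under 0.05 (RPA43 the 1 member) and 2 called by DESeq2. The member log2 ratios ran from −0.74 to 0.27. Between Puf4_ΔRBD and Puf4, 0 of 10 members were called, with 1 (RPA135) at an unadjusted p under 0.05, where 0.473% of 5079 genes were called. The member log2 ratios there ran from −0.01 to 0.68, and without library C1_5 of Puf4 RPC19 was called higher in Puf4_ΔRBD at 0.93 (adjusted p 0.0320).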

How the data were processed

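The authors double-selected poly(A) RNA, ligated a 3′ adapter with a molecular identifier, fragmented cDNA with Tn5 and sequenced both ends. Per the submitters' notes and the study's methods, reads were handled with bcl2fastq, Cutadapt, Bowtie2 (genome build R64) and bedtools, and Us after the poly(A) tail were counted on read 2 with a custom script. Versions were not given in the sources used here, nor was how identifiers entered the counts. The deposited files hold raw read counts per gene, for sense reads near the transcript end, in columns for 0 to 16 Us.

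Tagged reads (4 to 13 Us) were tested with edgeR 4.0.16 (quasi-likelihood, R 4.3.3), with the log of all reads of the gene as offset. A gene was tested where the compared libraries together held 10 or more of its tagged reads and its mean level reached 16 RPM, with Benjamini-Hochberg adjustment over all of them and a threshold of 0.05. Where a single group held almost all tagged reads of a gene, the minimum was passed through that group. The direction of a call was then set by the minimum. Fitted ratios against a group with no tagged read depend on the prior count and are no bounds. Levels were tested with TMM scaling and filterByExpr. Alternatives were DESeq2 1.42.0, limma 3.58.1, other U ranges (4 to 16 and 6 to 13), no minimum on counts, relative log expression scaling, Puf4 or another fusion against its own dPup2 strain, a depth minimum of 200000 reads, a replicate block and leaving out each library. The steps were tested on simulated data. Motifs were searched in the R64 genome with the coding ends of its RefSeq annotation.

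Named genes were all 10 members, up to 3 genes per pathway list with the largest ratio among those called in Puf4, and the tagged RBP's gene. Members and lists were chosen with earlier results of these data known.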

Additional observations from a re-analysis of the deposited data

Results flagged for a closer look

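Libraries standing apart in a tagged share were looked for in 63 groups of 4 to 10 libraries, and 19 were found, where chance gives about 1 in 20 groups for continuous values. That rate does not apply where all other libraries are at 0, since any tagged read then stands apart, so the number found is not set against chance. Each had a gap to its nearest neighbour that was large for the range of its strain. Most of them held 1 tagged read in a strain where the other libraries held 0, so the value is set by the depth of the gene in that library.

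For polymerase I subunits, RPA190 stood at 0.5587% in replicate 2 of Nsr1 and at 0.6042% in C1_3 of Puf5_T3. RPA49 stood at 0.5291% in the same Nsr1 library and at 0.3937% in the same Puf5_T3 library. RPA43 stood at 1.863% in C1_3 of Puf4_T1, at 2% in replicate 4 of Nsr1 and at 0.9662% in C1_3 of Puf5_T3. RPA135 had 0.4926% in C2_6 of Puf3_dead, 1 tagged read in a control strain.

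For the shared subunits, RPC40 stood at 10.34% (6 of 58 reads) in replicate 4 of Pub1, where the other 3 libraries lay at 0.781% to 1.74%, and at 0.1776% in C1_C2_1 of Puf4. RPC19 stood at 2.885% in replicate 4 of Nsr1 and at 0.3106% in C2_6 of Puf3_dead, the control library that also held the tagged RPA135 read.

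For polymerase III subunits, RPC31 stood at 0.5525% in C1_C2_1 of Puf4, at 2.174% in C2_1 of Puf4_T1 and at 2.21% (4 of 181 reads) in C1_1 of Puf5. RPC53 stood at 3.15% (4 tagged reads) in replicate 1 of Pub1 and at 0.9709% in C1_3 of Puf5_T3. RPC82 stood at 8.333% and RET1 at 0.9804% in replicates 4 and 1 of Nsr1. Replicate 4 of Nsr1 stood apart for 3 members and C1_3 of Puf5_T3 for 4.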

How the results depend on the processing

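Counts of members called moved in 8 comparisons when reads with 14 to 16 Us were also taken as tagged. With 4 to 16 Us, 1 member was called in Puf4 (73 of 4376 genes), 1 in Puf3 (146 of 4428), 0 in Sro9 (242 of 4348) and 0 in Nsr1 (0 of 4389) against dPup2. Against their whole forms, 1 was called in Puf4_ΔRBD (77 of 4299 genes), 1 in Puf4_T4&ΔIDR (168 of 4095), 3 in Pub1_Δ2 (1299 of 4304) and 0 in Pub1_ΔIDR_2 (1157 of 4181), and RPA135 in Puf4_T4&ΔIDR turned to a log2 ratio of 0.039 (adjusted p 0.975). Reads with 16 Us made up 6.45% of all reads in Puf4, 4.24% in Puf4_dead and 7.43% in Puf3_dead, so that range also counts reads that the controls hold. In Puf4 they numbered 476128, against 43348 reads with 4 to 13 Us. With 6 to 13 Us, 3 members were called in Pub1_Δ2. Without the minimum on counts, 10 members were called in Pub1 (3340 of 4415 genes), 7 in Sro9 (2141 of 2974), 3 in Nsr1 (1244 of 2393), 1 in Puf5 (159 of 1337) and 4 in Puf4 (603 of 2057). DESeq2 called 0 members in Sro9, 0 in Pub1_Δ2 and 2 in Pub1_Δ4, and limma called 0 in Pub1_Δ2. The causes were not tested beyond these values.

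Leaving out each library gave 2 to 3 members called in Puf4, 4 to 5 in Pub1, 0 to 1 in Sro9 and 1 in Nsr1 against dPup2. The range was 2 to 3 in Puf4_ΔRBD, 0 to 1 in Puf4_T3, 1 to 2 in Puf4_T4 and 1 to 2 in Puf4_T4&ΔIDR. It was 0 in Puf4_T1, Puf4_T2 and Puf4_ΔIDR, 1 to 2 in Pub1_Δ2, 0 to 4 in Pub1_Δ4 and 4 to 5 in Pub1_ΔIDR_2. For levels it was 0 to 1 in Puf4_ΔRBD and 0 between Puf4 and Puf4_dead.

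Replicate numbers shared between strains did not pair the libraries, as correlations of their deviations ran from −0.22 to 0.42. With a replicate block over the shared numbers, 1 member was called in Puf4_ΔRBD (RPC19), where 2 could be tested and RPA190 had an adjusted p of 0.0538. The block gave 0 in Puf4_T1, 2 in Puf4_T4, 1 in Pub1_Δ2 and 0 in Puf5_T6, as without it. Relative log expression scaling left the 20 level results of single genes on their side of the threshold. No library of the level comparisons held under 200000 reads, so that minimum gave no new value there. Depth limits the polymerase III subunits most, since counts of 0 in Puf4 allow shares of up to 0.744% for RET1, 1.18% for RPC82 and 0.629% for RPC53.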
